A study of Mus musculus with 12 samples.

Results

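Iron storage and transport genes were followed through the cortex of 12 mice. The set held 9 genes, chosen by gene name on the array: Ftl1, Fth1, Trf, Tfrc, Slc11a2, Slc40a1, Cp, Aco1 and Ireb2. They are 9 of the 29608 gene names carried by probes other than controls, and 15 probes stood for them. The study compared 3 groups of 4 adult female mice, all about 12 weeks old and in diestrus. MRL/lpr mice carry the lpr mutation of Fas on the MRL background and develop a lupus-like disease. Fn14ko mice (Fn14koMRL in the labels) were MRL/lpr littermates from a backcross that in addition lack Fn14, the receptor of the cytokine TWEAK, encoded by Tnfrsf12a. MRL/+ mice (MRL/MpJ) served as controls and came from another breeder, so source and genotype cannot be told apart in comparisons with them. Total RNA of the whole cortex was hybridised to 2-colour Agilent arrays of 60-base probes, and each array carried 2 mice of the same group. The comparisons ask what changes with the disease (MRL/lpr against MRL/+), what changes with the loss of Fn14 (MRL/lpr against Fn14ko), and how far Fn14ko mice stand from healthy controls.

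Iron travels in extracellular fluid bound to transferrin (Trf), which cells take up through the transferrin receptor (Tfrc). The divalent metal transporter Slc11a2 moves the released iron into the cytosol, where ferritin, a shell of heavy (Fth1) and light (Ftl1) chains, stores it. Ferroportin (Slc40a1) exports iron, and ceruloplasmin (Cp) oxidises it on the way out. Aco1 and Ireb2 encode the iron regulatory proteins, which bind iron-responsive elements in the untranslated regions of the ferritin, transferrin receptor and ferroportin messages and of some Slc11a2 messages. In the brain, transferrin is made mainly by oligodendrocytes and by the choroid plexus.

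Signals below are background-corrected and divided by the median of the channel's retained spots, so a signal of 1 is that of the median spot. Of the 15 probes, 13 probes of 8 genes passed the filter on dim spots and were tested. Ireb2, with 1 probe, was too dim to be tested. Every test compares mice for 1 probe at a time. Brighter and dimmer describe a probe's signal on the array, which depends on the probe as well as the RNA, and give no order of message levels between genes or probes.

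The results turn on pairs of probes to the same gene, and 30 bases of each are shown to tell them apart. They are printed as the files give them, 5′ to 3′, with the polyadenylation signal AATAAA in capitals where the probe holds it.
Trf A_55_P2037584: cacagagcacaaAATAAAaacgactgctga
Trf A_55_P2037585: aaatacttaggagcggagtacatgcaatct
Slc11a2 A_51_P388737: catccttgttatAATAAAgttcatgcttaa
Slc11a2 A_52_P254298: gagactctgaggagcccttcaccacctact
Tfrc A_52_P228236: tgagcaagatcacattaacaaagactagtt
Tfrc A_65_P06446: tcctgctagatggaacatagattcttcatg
In mm9, the build of the files, the Trf probes lie on the minus strand at chr9:103111207-103111266 and chr9:103112826-103112885, so the one with the signal is the downstream one. The Slc11a2 probes lie at chr15:100218333-100218392 and chr15:100240516-100240575, also on the minus strand, and again the probe with the signal is downstream. The Tfrc probes lie on the plus strand at chr16:32632255-32632314 and chr16:32620470-32620529. AATAAA was found in 4 of the 15 probes, 1 each of Ftl1, Trf, Slc40a1 and Slc11a2, against 12.6% of all 39429 probes of that length. Its reverse complement TTTATT was in 0 of the 15 and in 4.03% of all. No exon annotation of this build was used here.

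The arrays set limits that bear on these genes. Each group had its own slide and its own scan, so slide, scan and group cannot be told apart. The channels of both MRL/+ mice labelled with Cy5 (replicates 2 and 4) differed from the rest: the scanner software placed 35.0% and 21.2% of spots well above background in them, and at least 56.6% in the other 10 mice. Control spots made to stay dark read 6.88 and 6.66 times the local background there and 1.26 to 2.74 times elsewhere. Tnfrsf12a read 0.604 to 0.777 in Fn14ko, 1.38 to 1.90 in MRL/lpr and 0.943 to 1.28 in MRL/+, lowest in the mice that lack it though well above background in all 4. Where its probe lies relative to the deletion is not given in the sources used here. Fas overlapped among the 3 groups, with 0.164 to 0.284 in MRL/lpr. The defining markers of cortical neurons were present, with a summed signal of 173 to 243 over 12 probes in every mouse.

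Trf, which encodes the plasma and brain iron carrier, was lower in MRL/lpr than in both other groups, and both of its probes passed the test. Its downstream probe read 9.29, 10.1, 12.9 and 10.7 in the 4 MRL/lpr mice. In Fn14ko mice it read 29.4, 18.5, 22.4 and 27.9, and in MRL/+ mice 18.6, 21.3, 24.6 and 35.0. All 4 MRL/lpr mice were below every mouse of the other groups, while Fn14ko and MRL/+ overlapped. The upstream probe gave the same order, with 7.04, 7.21, 9.53 and 6.84 in MRL/lpr. It read 20.6, 14.7, 17.6 and 19.2 in Fn14ko and 13.2, 12.4, 21.4 and 18.1 in MRL/+. Both probes were well above background in all 12 mice.

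**Figure D1:**
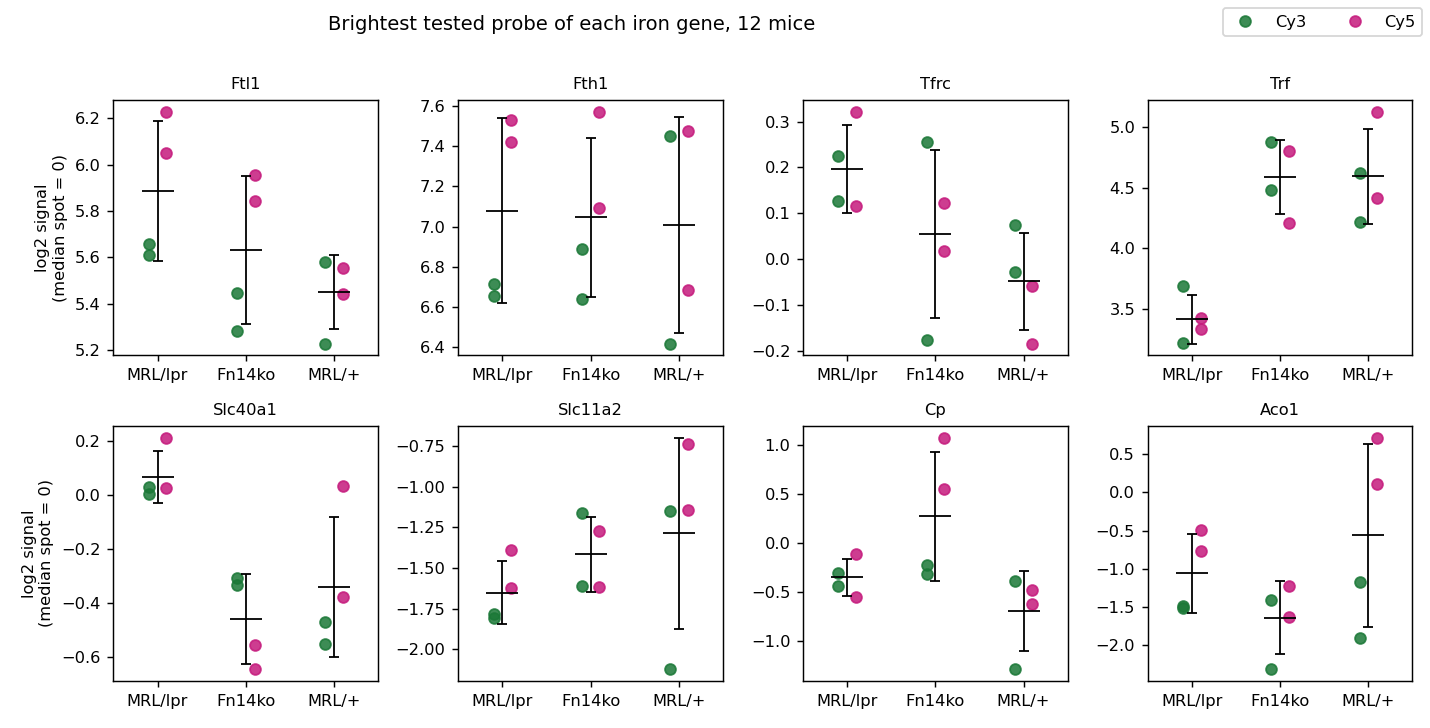
The log2 signal (median spot of the channel = 0) of the brightest tested probe of each gene is plotted by group, 1 point per mouse, green for Cy3 and pink for Cy5, with the mean (horizontal bar) and SD (error bar) of 4 mice, on a separate axis for each gene. The 4 MRL/lpr mice lie below all others for Trf, and the Cy5 mice lie above the Cy3 mice of the same group for Ftl1 and Fth1 in MRL/lpr and Fn14ko.

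In MRL/lpr against MRL/+, the Trf difference was -1.18 ± 0.27 on the log2 scale (standard error) for the downstream probe, with a limma adjusted p of 0.0138. For the upstream probe it was -1.06 ± 0.23, with a limma adjusted p of 0.0101. These are 0.442 and 0.478 times the MRL/+ geometric mean. Against Fn14ko the differences were -1.18 ± 0.27 and -1.24 ± 0.23, with limma adjusted p-values of 0.0274 and 0.00893. Both comparisons use the same 4 MRL/lpr mice. Leaving out any 1 of 6 mice ended the call of the downstream probe against Fn14ko (limma adjusted p up to 0.0786), and the upstream probe held with every mouse left out (up to 0.0323). The exact permutation test over the 70 divisions of 8 mice gave p = 0.0286, the smallest it can give, for both probes in both comparisons. Fn14ko against MRL/+ gave 0.00 ± 0.27 and 0.17 ± 0.23, with limma adjusted p-values of 0.996 and 0.620. Within the Cy3 mice the difference from MRL/+ was -0.97 and -1.03, and within the Cy5 mice -1.39 and -1.10. Without MRL/+ replicate 4, the differences from MRL/+ were -1.02 and -1.04 and neither passed (limma adjusted p = 0.0850 and 0.0582). When the filter on dim spots was dropped they shrank to -0.58 and -0.47, also not past the threshold.

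Over all members, 3 of 13 tested probes passed the limma threshold of 0.05 in MRL/lpr against MRL/+, all of them lower, where 15.0% of all 22419 probes passed and 9.30% were lower. The third was a Slc11a2 probe, described below. In MRL/lpr against Fn14ko the 2 Trf probes passed, both lower, where 4.02% of all probes passed and 1.75% were lower. In Fn14ko against MRL/+, 0 of 13 passed limma's test, where 1.10% of all probes did. At an unadjusted p under 0.05, 4 of the 13 passed limma in that comparison. The methods' t-test with its ratio cut-off, also unadjusted, passed 0 of the 13 there. It passed 2 in MRL/lpr against MRL/+ and 3 in MRL/lpr against Fn14ko. Of all 22419 probes it passed 746, 2683 and 1544 in these comparisons, in the same order. For limma no share of all probes at an unadjusted p was counted, here or below, so no excess is read from such counts. The median log2 difference of the 13 probes was -0.36, 0.00 and -0.25 in MRL/lpr against MRL/+, Fn14ko against MRL/+ and MRL/lpr against Fn14ko, beside -0.15, -0.14 and -0.08 over all probes. Groups did not overlap for 5, 2 and 4 of the 13 probes, where 24.8%, 14.0% and 19.5% of all probes did not.

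**Figure D2:**
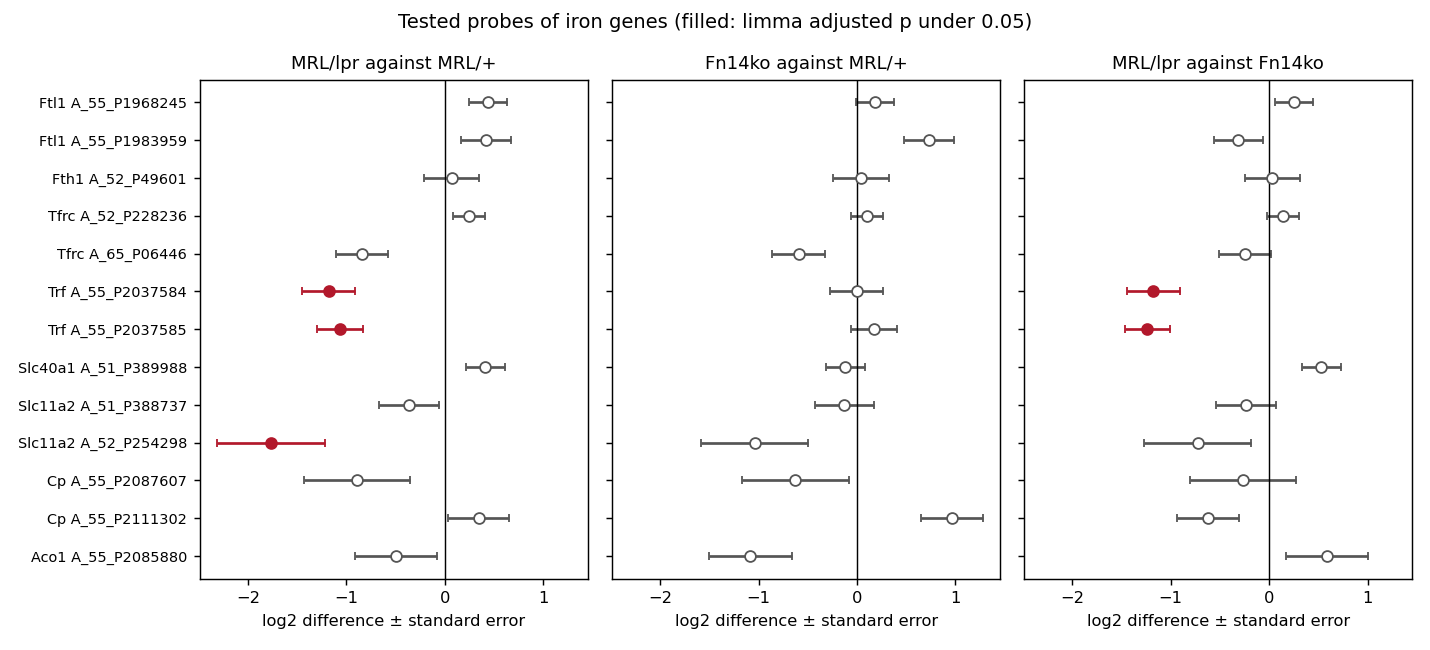
The log2 difference (point) and its standard error (bar) from limma are plotted for the 13 tested probes in the 3 comparisons, with 4 mice in each group and filled red points for probes past the adjusted threshold of 0.05. Both Trf probes are lower in MRL/lpr in the outer panels and lie at 0.00 and 0.17 in the middle one.

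Trf is known to be made by oligodendrocytes and choroid plexus, so the markers of both are given beside it. Of 13 probes for 9 oligodendrocyte genes, 12 were lower in MRL/lpr than in MRL/+, with a median of -0.75, but only 4 of these passed limma's threshold. They were probes of the myelin protein genes Mbp (-1.75, limma adjusted p = 0.0125) and Mobp (-1.44, limma adjusted p = 0.00524), the tight junction gene Cldn11 (-1.19, limma adjusted p = 0.00429), and Opalin (-1.08, limma adjusted p = 0.0223). The other Mbp probe gave -0.75 and the other Mobp probes -0.27 and -1.44, not past it (limma adjusted p = 0.258, 0.614 and 0.0685). A probe of Ermn was higher by 1.31 (limma adjusted p = 0.0178), while the other Ermn probe gave -0.45. Against Fn14ko, 11 of the 13 were lower with a median of -0.83. An unadjusted p under 0.05 was reached by 10 of 13, the higher Ermn probe among them. The same Mobp probe (-1.28) and the myelin enzyme gene Cnp (-1.16) were lower past the threshold, and the same Ermn probe (1.59) was higher. Fn14ko mice gave 0 of 13 past limma's threshold against MRL/+ (3 at an unadjusted p under 0.05), with a median of -0.16. The summed signal of the 13 probes was 51.5 to 89.5 in MRL/lpr, 51.6 to 70.4 in Fn14ko and 56.0 to 71.0 in MRL/+, and none of the 9 genes was at 0. In such a sum the brightest probe weighs most, here the higher Ermn probe, which made up 58.2% to 71.7% of it in MRL/lpr. The other 12 probes summed to 20.5, 22.3, 25.5 and 25.3 in MRL/lpr, 59.96, 43.98, 50.57 and 34.64 in Fn14ko, and 48.2, 38.1, 56.2 and 31.3 in MRL/+. Without that probe every MRL/lpr mouse lay below every other mouse. The probe was left out after its values were seen, so this separation depends on that choice. With all 13 probes the groups overlapped.

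**Figure D3:**
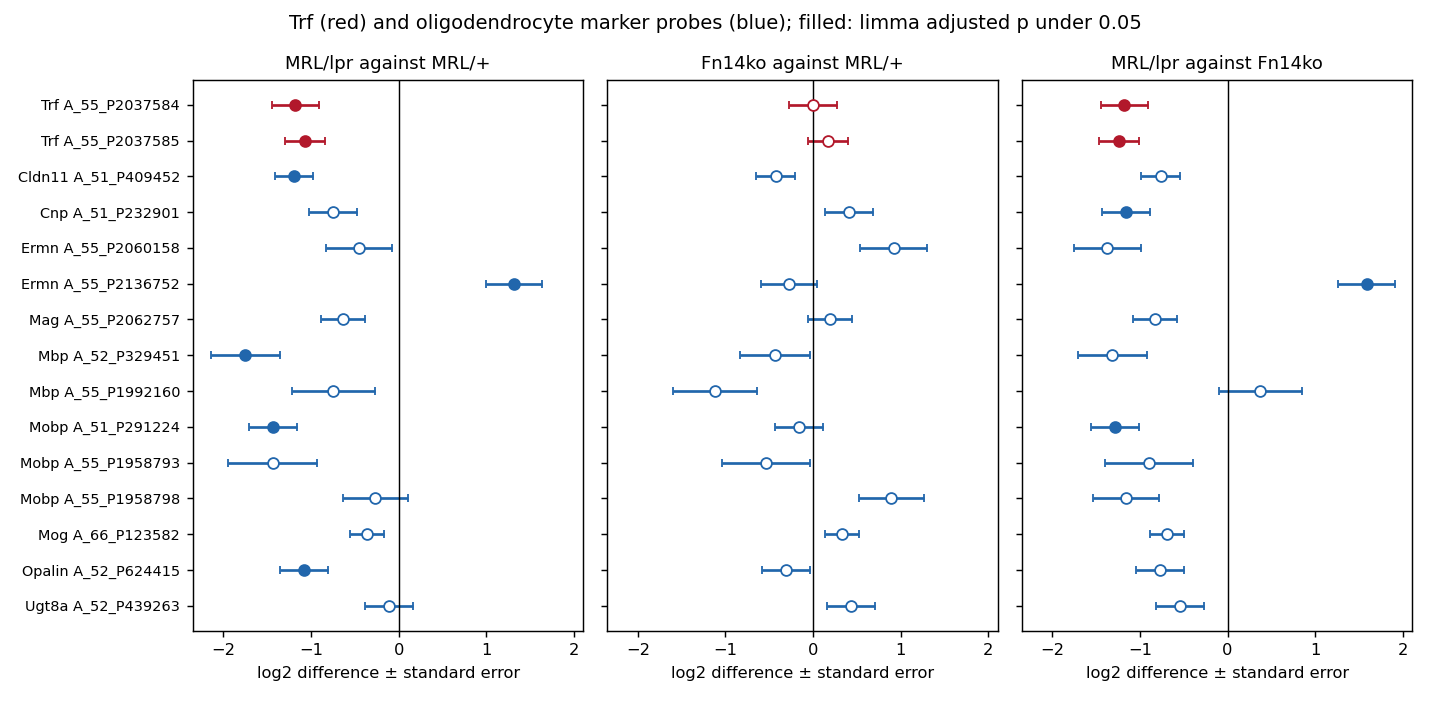
The log2 difference (point) and its standard error (bar) from limma are plotted for the 2 Trf probes (red) and 13 oligodendrocyte marker probes (blue) in the 3 comparisons, 4 mice a group, with filled points past the adjusted threshold of 0.05. In the left panel 12 of the 13 marker probes lie below 0 with both Trf probes, and 1 probe of Ermn lies at 1.31.

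The choroid plexus markers varied widely within each group. The sum of 12 probes was 9.69, 8.10, 104 and 17.2 in the MRL/lpr mice. It was 70.4, 129, 15.5 and 191 in Fn14ko and 20.2, 89.4, 25.4 and 274 in MRL/+. In the same order of mice, the downstream Trf probe read 9.29, 10.1, 12.9 and 10.7 in MRL/lpr. It read 29.4, 18.5, 22.4 and 27.9 in Fn14ko and 18.6, 21.3, 24.6 and 35.0 in MRL/+. On this probe the mouse with the highest sum had the highest Trf in MRL/lpr and in MRL/+, but not in Fn14ko. On the upstream Trf probe this held in MRL/lpr only. There MRL/+ replicate 3 read 21.4 and replicate 4, with the highest sum, 18.1. The choroid plexus transport protein gene Ttr made up 60.7% to 91.0% of the sum. The other 11 probes summed to 2.24, 2.96, 12.9 and 4.35 in MRL/lpr, 20.02, 24.69, 6.002 and 32.03 in Fn14ko, and 7.94, 12.7, 7.93 and 24.5 in MRL/+, so that MRL/lpr replicate 3 overlapped both other groups. Of the 12 probes, 11 were lower in MRL/lpr than in MRL/+ with a median of -1.47, and 1 passed limma (Clic6, -2.51, adjusted p = 0.0463). Against Fn14ko all 12 were lower with a median of -1.27, 0 passed limma and 4 had an unadjusted p under 0.05. The part of either cell type in the Trf difference was not tested, and in bulk tissue fewer cells of a type and less RNA per cell cannot be told apart.

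Slc11a2, the transporter that carries iron out of endosomes, had 2 probes that gave different calls. The brighter, downstream probe read 0.290, 0.382, 0.286 and 0.324 in MRL/lpr. It read 0.446, 0.413, 0.327 and 0.326 in Fn14ko and 0.451, 0.600, 0.229 and 0.454 in MRL/+. MRL/+ replicate 3 was the lowest of the 12 mice, so the groups overlapped. The difference was -0.36 ± 0.30 from MRL/+ and -0.24 ± 0.30 from Fn14ko (limma adjusted p = 0.383 and 0.775), and the first became 0.41 with Agilent's processed signal.

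The upstream probe of Slc11a2 passed the threshold in MRL/lpr against MRL/+ with a difference of -1.77 ± 0.55 (limma adjusted p = 0.0454). It read 0.0897, 0.200, 0.0870 and 0.194 in MRL/lpr, 0.299, 0.332, 0.12 and 0.189 in Fn14ko, and 0.376, 0.787, 0.138 and 0.988 in MRL/+. The groups overlapped, since MRL/+ replicate 3 lay below 2 MRL/lpr mice, and the exact permutation p was 0.0857. The probe was well above background in 1 of 4 MRL/lpr mice and 2 of 4 MRL/+ mice. Its signal was 1.26 to 1.36 times that of the dimmest retained spot in the MRL/lpr channels and 1.09 to 4.18 times in the MRL/+ channels. Both highest values came from the MRL/+ Cy5 mice, in which the software did not place the spot well above background. In the Cy3 mice alone the difference was -1.37 and did not pass (limma adjusted p = 0.569).

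Tfrc, the uptake receptor, was read by 3 probes. Its main probe is printed 10 times on the array, and the 8 copies retained gave a coefficient of variation of 9.79% to 21.9% within 11 mice and 43.9% in MRL/+ replicate 4. The mean of the copies was 1.09, 1.08, 1.17 and 1.25 in MRL/lpr, 0.885, 1.09, 1.19 and 1.01 in Fn14ko, and 1.05, 0.961, 0.981 and 0.880 in MRL/+. Every MRL/lpr mouse was above every MRL/+ mouse, by a small margin (0.25 ± 0.17, limma adjusted p = 0.283, exact permutation p = 0.0286). Over the 3 comparisons the differences were 0.10 to 0.25, and none passed. In the MRL/+ Cy5 mice not all retained copies were well above background.

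The second Tfrc probe, which lies upstream, pointed the other way. It read 0.250, 0.247, 0.241 and 0.304 in MRL/lpr, 0.344, 0.307, 0.269 and 0.316 in Fn14ko, and 0.435, 0.571, 0.324 and 0.576 in MRL/+. The difference of MRL/lpr from MRL/+ was -0.84 ± 0.27, just outside the threshold with a limma adjusted p of 0.0501, and it became 0.18 with Agilent's processed signal. The 2 highest values again came from the MRL/+ Cy5 mice, where the spot was not well above background. The third probe was well above background in 1 of 12 mice and was not tested.

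The ferritin chains showed no called difference. Fth1 read 101, 171, 105 and 185 in MRL/lpr, 118, 137, 99.7 and 190 in Fn14ko, and 85.6, 103, 175 and 178 in MRL/+. The groups spanned the same range, and the 3 differences were 0.07, 0.04 and 0.03, each ± 0.28. The sign of each Fth1 difference changed under other scalings. In MRL/lpr and Fn14ko, both Cy5 mice read above both Cy3 mice.

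Ftl1 on its brighter probe read 48.9, 75, 50.5 and 66.2 in MRL/lpr, 38.9, 57.4, 43.6 and 62.0 in Fn14ko, and 37.5, 46.9, 47.8 and 43.5 in MRL/+. Every MRL/lpr mouse was above every MRL/+ mouse, but the difference of 0.44 ± 0.19 did not pass (limma adjusted p = 0.128, exact permutation p = 0.0286). It became -0.14 with Agilent's processed signal. The dimmer Ftl1 probe was highest in Fn14ko, at 15.5, 13.7, 15.0 and 14.1, against 12, 12.6, 12.9 and 9.68 in MRL/lpr and 11.2, 7.92, 12.4 and 5.41 in MRL/+. Its difference of 0.73 ± 0.25 between Fn14ko and MRL/+ did not pass either (limma adjusted p = 0.140) and became -0.10 with Agilent's processed signal. Both ferritin genes have many processed pseudogenes, and hybridisation of their transcripts to these probes was not tested.

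Slc40a1, the iron exporter ferroportin, was highest in MRL/lpr without passing the threshold. It read 1.00, 1.02, 1.02 and 1.16 in MRL/lpr, 0.807, 0.639, 0.794 and 0.680 in Fn14ko, and 0.721, 0.770, 0.682 and 1.02 in MRL/+. MRL/lpr lay above all Fn14ko mice and overlapped MRL/+ through MRL/+ replicate 4. The spot was not well above background in MRL/+ replicates 2 and 4, the Cy5 mice. The differences were 0.53 ± 0.20 from Fn14ko and 0.41 ± 0.20 from MRL/+ (limma adjusted p = 0.179 and 0.154).

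Cp, the ferroxidase ceruloplasmin, was highest in Fn14ko on its brighter probe, which read 0.860, 1.47, 0.803 and 2.11 there. It read 0.814, 0.927, 0.742 and 0.685 in MRL/lpr and 0.767, 0.720, 0.411 and 0.651 in MRL/+. The difference of Fn14ko from MRL/+ was 0.96 ± 0.31, with no overlap, and did not pass (limma adjusted p = 0.121). It was 0.57 within the Cy3 mice and 1.36 within the Cy5 mice, the 2 highest values being those of Cy5 mice. In the MRL/+ Cy5 mice the spot was not well above background. The dimmer Cp probe read 0.0995 to 0.535 over the 12 mice and gave -0.63 ± 0.54 in the same comparison, or 0.21 after loess and quantile normalization.

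Of the regulators, Aco1 was well above background in all 12 mice. It encodes the cytosolic aconitase that binds RNA when it lacks its iron-sulfur cluster, and read 0.356, 0.590, 0.350 and 0.713 in MRL/lpr, 0.376, 0.429, 0.200 and 0.323 in Fn14ko, and 0.442, 1.08, 0.266 and 1.64 in MRL/+. The Cy5 mice of MRL/+ were again the highest of all 12. Fn14ko against MRL/+ gave -1.08 ± 0.42 over both dyes, but -0.32 within the Cy3 mice and -1.84 within the Cy5 mice, and it did not pass (limma adjusted p = 0.166). Ireb2, the other regulator, read 0.0862 to 0.152 in MRL/lpr, 0.0848 to 0.258 in Fn14ko and 0.138 to 0.543 in MRL/+, and was well above background in 5 of 12 mice.

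Other genes of iron handling were read from the same fit. Of 61 genes listed, 50 genes with 64 probes were tested. In MRL/lpr against MRL/+, 3 probes were higher and 5 lower, with a median of -0.12. In Fn14ko against MRL/+, 0 passed limma (13 at an unadjusted p under 0.05, none by adjusted p), with a median of 0.15. In MRL/lpr against Fn14ko, 1 was lower and 0 higher, with 9 at an unadjusted p under 0.05. The counts past the adjusted threshold stand beside 15.0%, 1.10% and 4.02% of all probes. No share of all probes stands beside the unadjusted counts, so no excess is read from them.

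The genes of mitochondrial iron, iron-sulfur clusters and heme were the longest of these lists, with 28 of the 64 probes and 5 of the 8 calls in MRL/lpr against MRL/+. Of the 28, 2 were higher and 3 lower, a share of 17.9% beside the 15.0% of all probes. Alas1, the rate-limiting enzyme of heme synthesis outside red cells, had 2 probes that pointed opposite ways against MRL/+. Probe A_55_P1959985 read 1.46, 1.71, 1.31 and 1.57 in MRL/lpr, 2.98, 4.39, 2.40 and 2.83 in Fn14ko, and 2.48, 3.16, 3.21 and 4.29 in MRL/+. It was lower in every MRL/lpr mouse than in any other mouse, by -1.10 ± 0.20 from MRL/+ and -1.03 ± 0.20 from Fn14ko (limma adjusted p = 0.00393 and 0.0113). Probe A_55_P2083649 read 6.10, 4.14, 4.85 and 3.65 in MRL/lpr, 6.12, 7.25, 7.26 and 6.71 in Fn14ko, and 4.83, 0.948, 6.81 and 0.809 in MRL/+. Its differences of 1.04 ± 0.60 from MRL/+ and -0.57 ± 0.60 from Fn14ko did not pass (limma adjusted p = 0.217 and 0.712), and the 2 lowest values were those of the Cy5 mice of MRL/+. The transporter gene Abcb10 was lower by -0.67 (limma adjusted p = 0.0352). The cluster assembly gene Isca1 was lower by -0.67 on probe A_52_P304323 (limma adjusted p = 0.0382), while its probe A_52_P167189 gave 0.51 ± 0.23 (limma adjusted p = 0.128).

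The 2 higher probes in that list were those of the mitoferrins, which carry iron into mitochondria. Slc25a37, the mitoferrin of red cell precursors, read 2.27, 3.36, 2.68 and 2.71 in MRL/lpr against 1.07, 1.22, 1.34 and 1.19 in MRL/+ (1.18 ± 0.25, limma adjusted p = 0.00909), with 1.60, 1.43, 2.11 and 1.15 in Fn14ko. The summed signal of 6 erythroid marker probes had the same order of groups, at 243 to 711 in MRL/lpr, 92.2 to 236 in Fn14ko and 77.8 to 124 in MRL/+. The brightest probe, that of Hba-a2, made up 26.5% to 65.9% of this sum. Against MRL/+, 5 of the 6 differences were positive and 1 negative (Slc4a1, -0.19). Of these, 2 passed limma's threshold, those of Hba-a1 (2.37) and Hbb-b2 (2.28). Against Fn14ko all 6 were positive and 1 passed. The part of erythroid cells in the Slc25a37 difference was not tested. Slc25a28, the mitoferrin of other tissues, was higher by 0.64 ± 0.19 (limma adjusted p = 0.0387), at 5.43 to 5.74 against 3.03 to 4.05.

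Among the uptake and export genes, 1 of 18 probes passed in MRL/lpr against MRL/+, that of the ferric reductase Cybrd1. It read 0.135, 0.213, 0.185 and 0.208 in MRL/lpr, 0.350, 0.365, 0.208 and 0.414 in Fn14ko, and 0.451, 0.621, 0.264 and 0.624 in MRL/+ (-1.35 ± 0.32, limma adjusted p = 0.0167), and it was well above background in 2 of 4 MRL/+ mice. Of the 12 probes for storage, chaperones and cytosolic control, 0 passed limma in any comparison, and at an unadjusted p under 0.05 it was 3, 2 and 1 in the order used above. The 2 hepcidin axis probes did not pass either. Epas1, a transcription factor gene whose message holds an iron-responsive element, had 2 probes called in opposite directions, at -0.999 ± 0.22 and 0.68 ± 0.21 (limma adjusted p = 0.0120 and 0.0487).

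The genes whose log2 signal followed the members most closely over the 12 mice were named by Pearson's r, as a description of points that share slides, dyes and groups. Named genes most like Trf were Triqk (r = 0.958) and Plpp2 (r = 0.958). Slc40a1 was most like Ino80 (r = 0.975), Cp like Psmb8 (r = 0.969) and Igtp (r = 0.963), Fth1 like Tpt1 (r = 0.953), and Tfrc like Pmm1 (r = 0.881). The 2 Trf probes followed each other at r = 0.948. The upstream Slc11a2 probe followed the upstream Tfrc probe (r = 0.918) and the dimmer Cp probe (r = 0.906) more closely than its own gene's downstream probe (r = 0.854). None of these probes was well above background in the MRL/+ Cy5 mice. In MRL/+ replicate 2 they read 1.57, 1.14, 1.07 and 1.20 times the channel's dimmest retained spot, in the order named. The part of this floor in the correlations was not tested.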

How the data were processed

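The authors deposited the scanner output of 6 arrays, each with 2 mice of 1 group, as intensity values: mean foreground and median local background of every spot and channel, before normalization, with quality marks and Agilent's own processed signal. Spots marked uneven or outlying, and spots under 2 times local background in any of the 12 mice, were left out as in the study's methods. Normexp correction (offset 50) was followed by division of each channel by its median and log2 transformation. Copies of a probe were averaged, and probes of a gene were kept apart. All 22419 retained probes were fitted with limma 3.58.1 (R 4.3.3), with a dye term, the array as a random block (correlation 0.324) and a trended variance, 2-sided, with Benjamini-Hochberg adjustment at 0.05. Single probes were also tested by exact permutation of mice, 2-sided, without array or dye, so its p-values ignore the sharing of arrays. Alternatives changed background correction, scaling, filters, terms and mice. The number of arrays limits precision. Member genes and lists were chosen with earlier results of these data known. A few listed genes are not reported here and are left out of the counts and sums of their lists. Lead probes are the brightest tested; other iron genes are named where called, up to 4 in each direction. The fit was tested on simulated data. Python 3.11.15 was used. Nothing in the labels says whether RNA was taken from separate litters, so p-values measure the spread between these mice.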

Additional observations from a re-analysis of the deposited data

Results flagged for a closer look

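In 3 of the 45 groups of 4 mice tested for an outlying mouse (15 probes, 3 groups), 1 mouse lay far from the others. Chance gives about 1 in 20 such groups. All 3 were the highest MRL/lpr mouse: replicate 3 for the upstream Trf probe (signal 9.53, gap 0.843 of the group's range), replicate 4 for Slc40a1 (signal 1.16, gap 0.868 of the range) and replicate 4 for the upstream Tfrc probe (signal 0.304, gap 0.846 of the range). MRL/lpr replicate 3 still read below all Fn14ko and MRL/+ mice for that Trf probe. The gaps are shares of the range of log2 signals, not of the signals printed beside them.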

How the results depend on the processing

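The Trf differences of MRL/lpr kept their sign under every alternative run. From MRL/+ they ranged from -1.49 to -0.58 (downstream probe) and from -1.71 to -0.47 (upstream), past the threshold under 24 and 25 of 28 alternatives. From Fn14ko they ranged from -1.35 to -1.03 and from -1.56 to -1.16, past it under 19 and 25 of 28. The upstream Slc11a2 probe lost its call under 15 of 27, where its adjusted p was 0.0454 in the values reported. Of 1071 alternative values for 39 differences, 923 kept direction and side of the threshold, 38 newly passed, 34 no longer passed and 76 changed sign, all 76 among 21 differences that were not called. The causes of these changes were not tested.

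As reported, 3 member probes passed in MRL/lpr against MRL/+. The count was 1 in the Cy3 mice alone, 6 in the Cy5 mice alone (an alternative added after the data were seen), 1 with gene means on the linear scale, 5 without the array block, 0 with dim spots kept, and 0 by the methods' t-test after Benjamini-Hochberg adjustment. In Fn14ko against MRL/+, where 0 passed, it was 5 in the Cy5 mice alone, 2 with background subtraction, 2 with loess and quantile normalization, 3 without the array block and 1 with only the groups compared. In MRL/lpr against Fn14ko, where 2 passed, it was 0 in the Cy5 mice alone, 1 with gene means, 0 with dim spots kept and 0 by the adjusted methods' t-test. Leaving out 1 mouse at a time gave 0 to 6, 0 to 3 and 1 to 2. The 0 and the 6 came without MRL/+ replicate 4 and without MRL/+ replicate 3, and the latter also gave the 3. In Fn14ko against MRL/+ the count was 1 without Fn14ko replicate 1 and without MRL/+ replicate 1. The 1 in the last comparison came without Fn14ko replicates 1 or 4, MRL/+ replicates 3 or 4, or MRL/lpr replicates 1 or 4, each left out singly.

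Counts over all probes moved as well. In the order used above, 3362, 247 and 902 probes passed, against 16, 0 and 38 with dim spots kept, 7102, 2911 and 2071 without the array block, and 1027, 2 and 399 without MRL/+ replicate 4. When channels were scaled to the 75th percentile, the median log2 difference over all probes moved from -0.15 to -0.38 against MRL/+ for MRL/lpr, and from -0.14 to -0.39 for Fn14ko. Replicate numbers were not taken to pair the mice. Correlations of same-numbered mice, after the dye difference was removed, ran from -0.29 to 0.46. Mice of different numbers were not compared in this way, so the range does not settle whether the numbers pair them. With the number as a replicate block, 4, 2 and 2 member probes passed, and 7561, 1979 and 1827 of all probes.

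The differences that changed sign are given by comparison, with the alternative value in log2. Fth1 in MRL/lpr against MRL/+ became -0.16 at the 75th percentile, -0.10 with Agilent's processed signal, -0.25 in Cy3 mice, -0.10 with background subtraction, -0.10 with loess and quantile, and -0.13 with spots well above background in all samples. With the processed signal the 2 Ftl1 probes became -0.14 and -0.41, the upstream Tfrc probe 0.18 and the downstream Slc11a2 probe 0.41. That Slc11a2 probe also became 0.27 with loess and quantile and 0.23 with dim spots kept. The gene means were 0.16 for Tfrc and 0.034 for Cp, set against their dimmer probes. The dimmer Cp probe became 0.19 with loess and quantile, and Aco1 became 0.043 in Cy3 mice and 0.10 with dim spots kept.

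Fth1 in Fn14ko against MRL/+ became -0.21 at the 75th percentile, -0.15 with the processed signal, -0.17 in Cy3 mice, -0.053 with background subtraction and -0.19 with well-above spots. The brighter Ftl1 probe became -0.0676, -0.32 and -0.039 under the first 3 of these and -0.045 with well-above spots, and the dimmer one -0.10 with the processed signal. The main Tfrc probe became -0.15 at the 75th percentile. The upstream Tfrc probe became 0.10 with the processed signal, 0.032 with gene means and 0.13 with dim spots kept. The downstream Trf probe became 0.26 in Cy3 mice, 0.064 with gene means and 0.72 with dim spots kept. The upstream one became -0.077 at the 75th percentile, -0.14 with the processed signal, -0.0515 with loess and quantile and -0.054 with well-above spots. Slc40a1 became 0.69 with the processed signal, 0.19 in Cy3 mice and 0.61 with dim spots kept. The downstream Slc11a2 probe became 0.71, 0.25 and 0.60 under the same 3, 0.10 with background subtraction and 0.45 with loess and quantile. The dimmer Cp probe became 0.62 with gene means, 0.21 with loess and quantile and 0.10 with dim spots kept.

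Fth1 in MRL/lpr against Fn14ko became -0.079 in Cy3 mice, -0.0428 with background subtraction, -0.27 with loess and quantile and -0.10 with dim spots kept. The gene means were 0.14 for Ftl1 and 0.13 for Tfrc, against their dimmer probes. The upstream Tfrc probe became 0.084 and the dimmer Cp probe 0.45 with the processed signal, and the latter 0.21 with background subtraction.

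Leaving out 1 mouse at a time changed the sign of Fth1 in all 3 comparisons, with ranges of -0.11 to 0.26, -0.15 to 0.23 and -0.054 to 0.14. In Fn14ko against MRL/+ it gave -0.15 to 0.17 for the downstream Trf probe, -0.24 to 0.030 for Slc40a1 and -0.35 to 0.000639 for the downstream Slc11a2 probe, and in MRL/lpr against Fn14ko -0.43 to 0.044 for the dimmer Cp probe.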
